A study of Bos taurus with 2 samples.

Results

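The cattle genome assembly used for these data holds, beside its chromosomes, many sequences that could not be placed on any of them. The 2 bone samples of the series were read by whole-genome bisulfite sequencing, a method in which unmethylated cytosines are converted and methylated ones are kept, so that each read over a CpG site (a cytosine followed by a guanine) gives 1 call, methylated or unmethylated. Both samples came from the bone of female Holstein cattle, a dairy breed, with no treatment, age or genotype given. They form 1 group, the labels do not say whether they came from 1 or 2 animals, and n = 2 throughout, so that no difference between conditions could be tested. The sequences described here were chosen by name alone, as every sequence that was not chromosome 1 to 29, X or the mitochondrial genome. There were 2177 of them, with 2354465 CpG sites after both strands of a site were merged. Of these, 1344 had at least 50 CpG sites and, in both samples, at least 200 calls, and these are the described sequences below.

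Sequences are left unplaced mainly when they are repetitive. The bovine genome is known for satellite DNA, tandem arrays of a short or long unit repeated head to tail around the centromeres of its chromosomes, with several families of unrelated or partly related units. Satellite DNA and other repeats carry much of the CpG methylation of mammalian somatic cells, which keeps them silent. CpG islands, in contrast, are CpG-dense stretches on chromosomes that usually lack methylation.

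The deposited files give no bases other than the 3 that start at each cytosine, on either strand. Merged over both strands, this gives the base before and the base after every CpG site, and the distances between sites. The runs of 5 CpG sites that were most frequent in each group of sequences are printed here because they are what these data show of the repeats. The 23 bp run spans several units, and each of the others is a stretch within a unit. CG is in capitals, the bases on either side of it are in lower case, and n is a base the files do not give.

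23 bp group: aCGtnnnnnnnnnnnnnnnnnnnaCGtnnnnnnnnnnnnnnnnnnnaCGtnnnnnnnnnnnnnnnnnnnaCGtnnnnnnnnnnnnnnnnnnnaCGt
46 bp group: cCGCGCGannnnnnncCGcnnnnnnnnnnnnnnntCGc
1400 bp group: cCGcnnnnnnntCGantCGCGaCGg
longer 1400 bp group: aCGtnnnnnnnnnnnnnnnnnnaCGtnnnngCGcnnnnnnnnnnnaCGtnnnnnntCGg
3.8 kb family: gCGCGccCGgngCGgngCGa

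The groups were set by the distance at which CpG sites recurred. For each sequence, the share of CpG sites with another CpG site at each exact distance from 20 to 5000 bp was counted, and the sequence was given a dominant distance where the highest share reached 20%, namely the shortest distance with at least 80% of that highest share. The longest distance tried was shorter in sequences with a short span, so a long unit could not be found there. The 23 bp group was the largest, with 693 of the 1344 described sequences (51.6%). Their CpG sites recurred every 23 bp in 687 sequences and every 22 bp in 6. Within this group, 36.9% of neighbouring sites lay exactly 23 bp apart, 10.9% lay 22 bp apart, 7.37% lay 46 bp apart and 5.73% lay 45 bp apart. The printed run of 5 ACGT sites at steps of 23 bp was found 23270 times in 675 of the 693 sequences.

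The other 3 groups had longer distances. The 46 bp group held 34 sequences, all with the distance of 46 bp. In the 1400 bp group of 63 sequences the distance ran from 1390 to 1406 bp and was 1406 bp in 19 of them. The longer 1400 bp group held 41 sequences, of which 34 had a distance of exactly 1413 bp. A further 85 sequences had another distance, from 31 to 4816 bp, and 428 had no dominant distance. A stricter measure of a tandem period, in which at least 50% of the sites had a partner within 2 bp of a single distance and this share was at least 3 times the median over distances, was met by 696 of the 1344 described sequences (51.8%). With the distance matched exactly, only 9.52% met it.

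**Figure D1:**
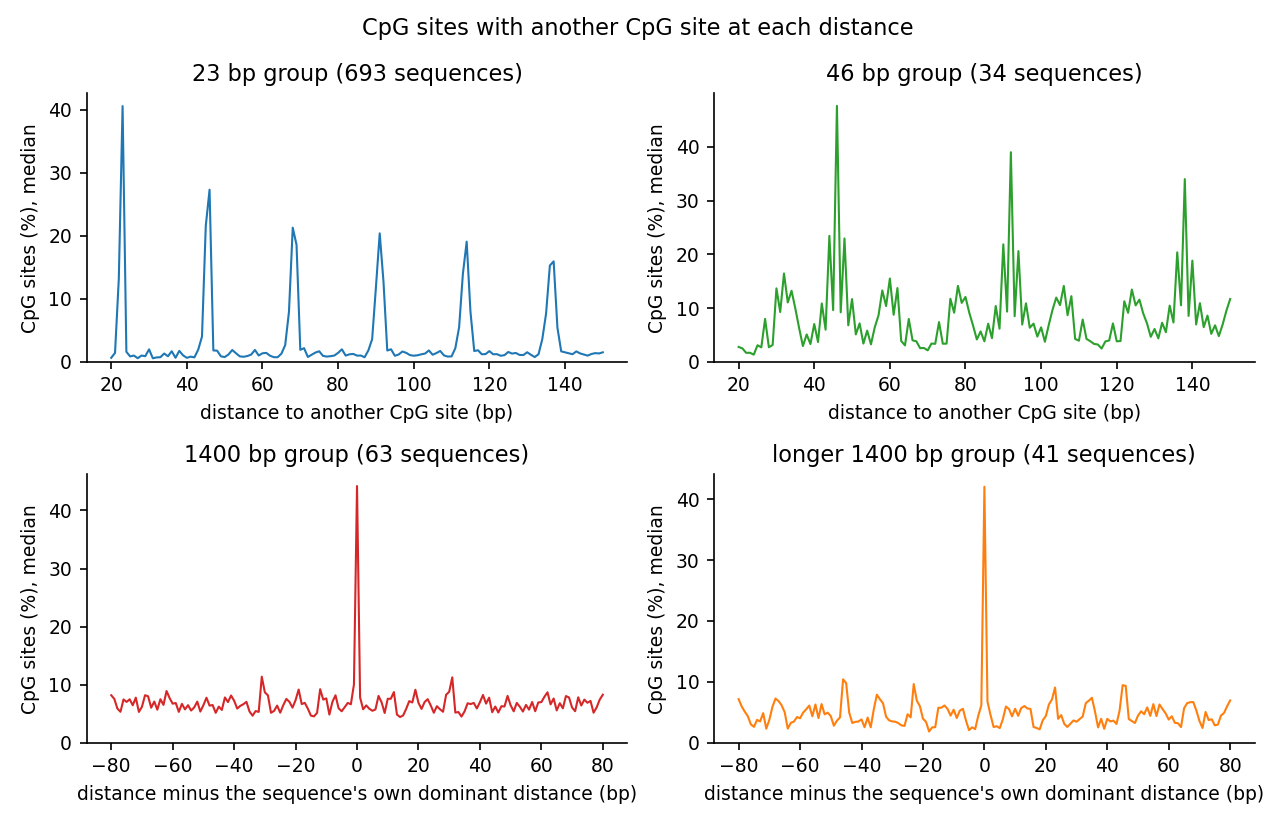
Median share of CpG sites (y axis, %) that had another CpG site at each distance (x axis, bp), over the 693, 34, 63 and 41 sequences of the 4 groups. In the 2 lower panels each sequence was aligned on its own dominant distance, so the peak at 0 is set by the alignment. The 23 bp panel shows evenly spaced peaks with flat stretches between them, and the 46 bp panel shows minor peaks beside its main ones.

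The groups differed in the letters around their CpG sites as well as in spacing. In the 23 bp group, 70.3% of CpG sites were ACGT, compared with 7.8% on the autosomes and 10.4% in sequences with no dominant distance. The 46 bp group was rich in GCGA and CCGC sites, counted with their reverse complements, at 31.9% and 27.0%. In the 1400 bp group the most frequent letters were TCGA, at 15.8% of sites, and in the longer 1400 bp group they were ACGT, at 23.9%.

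Unplaced sequences were dense in CpG sites. The described sequences had a median of 943 CpG sites (range 50 to 66711) and a median of 33.4 CpG sites per kb (range 4.50 to 110), compared with a median of 8.5 per kb over 222824 autosomal bins of 10 kb that met the same minimum numbers of sites and calls. The median was 90.4 per kb in the 46 bp group, 62.8 in the 1400 bp group, 46.7 in the longer 1400 bp group, 33.3 in the 23 bp group and 16.6 without a dominant distance. More than 30 CpG sites per kb were found in 75.1% of described sequences and in 3.32% of the autosomal bins.

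The same runs of CpG sites recurred among unplaced sequences and, in part, on chromosomes. In the median described sequence, 78.2% of its runs of 5 CpG sites (the bases beside each site and all distances the same) were also found in another unplaced sequence, and 35.6% were found on chromosome 1 to 29 or X. For comparison, 4.40% of the runs in the median autosomal bin were found on another chromosome. CpG sites were sparser in these bins, so a run of 5 sites there spanned more bases. The shares were not compared at equal density. The share found on chromosomes was 71.3% in the median sequence of the longer 1400 bp group, 53.4% in the 1400 bp group and 39.3% in the 23 bp group, and it was 3.79% in the 46 bp group. Positions on chromosomes were counted for the printed runs only. Of 389 copies of the 23 bp run, 377 lay in the first 2 Mb of an autosome, with 106 on chromosome 1, 98 on chromosome 2 and 95 on chromosome 13. The longer 1400 bp run had 52 copies on chromosomes, all in the first 2 Mb, and the 1400 bp run had 36, of which 35 lay there. Neither the 46 bp run nor the 3.8 kb family's run was found on a chromosome. No printed run was limited to its own group. In other described sequences, the longer 1400 bp run was found 691 times (919 in its group) and the 1400 bp run 446 times (807). The 23 bp run was found there 528 times (23270), the 46 bp run 16 times (1665) and the 3.8 kb family's run 13 times (74).

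Depth was given for each sequence as its calls per CpG site over the autosomal median, which was 13 calls per site for the first bone sample and 14 for the second. Unplaced sequences took 118609426 calls in bone sample 1, which was 20.4% of all its calls, and 31915102 calls in bone sample 2, which was 7.25%. The median relative depth of described sequences was 1.5 in bone sample 1 (quartiles 0.429 and 5.35) and 0.390 in bone sample 2 (quartiles 0.0938 and 1.26). By the same measure the median autosomal bin stood at 1.19 in bone sample 1 and 1.23 in bone sample 2. With the median instead of the mean number of calls per site of a sequence, the medians of described sequences were 0.154 and 0. Since described sequences needed 200 calls, shallow ones were left out, and over all 2147 sequences with at least 50 CpG sites the medians were 0.370 and 0.0785. Relative depth reached at least 3 in both samples in 166 of the 1344 described sequences (12.4%), compared with 0.0386% of autosomal bins. With these included, 470 sequences (35.0%) reached it in bone sample 1 and 175 (13.0%) in bone sample 2, where the autosomal shares were 0.17% and 0.0543%. Relative depth was under 0.5 in 27.8% of described sequences in bone sample 1 and in 55.7% in bone sample 2, where the autosomal shares were 1.10% and 1.58%. Thus a larger share of sequences than of bins lay at each extreme of depth. The bins were sparser, with a median of 8.5 CpG sites per kb, and autosomal depth itself changed with density. Autosomal 1 kb windows with 60 or more CpG sites stood at 1.67 in bone sample 1 but at 0.432 in bone sample 2. Measured against autosomal windows of equal density, the median sequence reached 1.15 for bone sample 1 and 0.496 for bone sample 2. How far density accounts for the shares under 0.5 was not tested.

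**Figure D2:**
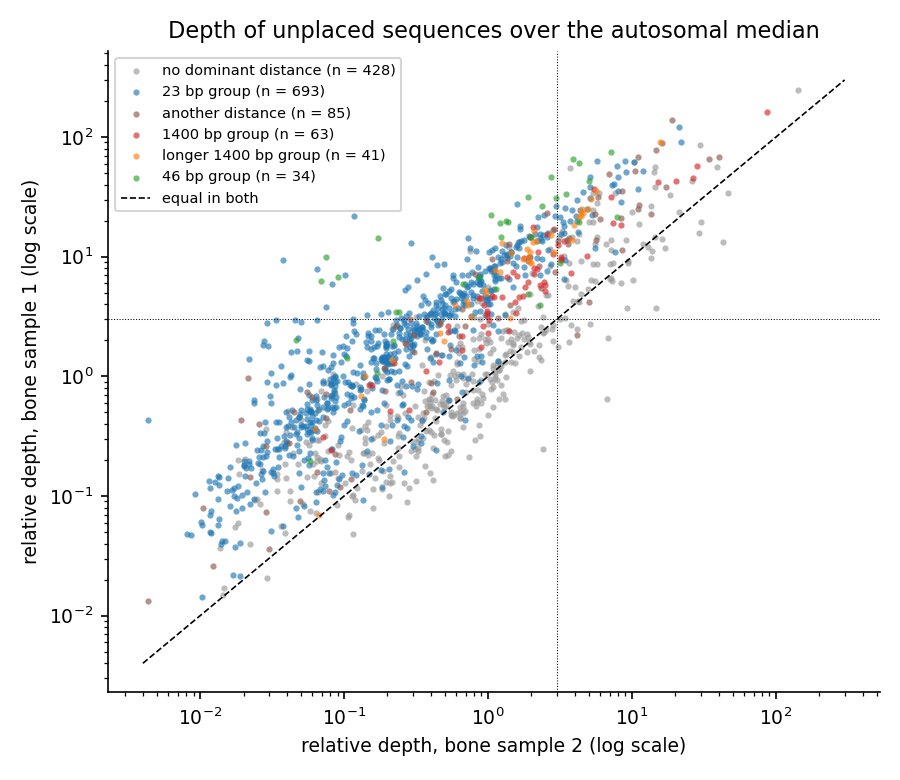
Relative depth of each of the 1344 described sequences in bone sample 1 (y axis) against bone sample 2 (x axis), both on log scales, coloured by distance group. The dashed line marks equal depth and the dotted lines mark a relative depth of 3. Most points of the 23 bp and 46 bp groups lie above the dashed line, and those without a dominant distance lie on both sides of it.

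Calls were piled on few sites. The 1% of unplaced CpG sites with the most calls held 52.5% of unplaced calls in bone sample 1 against 58.3% in bone sample 2, whereas the corresponding autosomal shares were 6.52% and 3.99%. No call at all fell on 48.8% and 62.7% of unplaced sites, compared with 2.54% and 1.58% of autosomal sites. The median site of a sequence had no call in 493 described sequences in bone sample 1 and in 768 in bone sample 2. Some sequences were nevertheless deep along their whole length. In Leftover_ScbfJmS_530 of the 23 bp group, each of the 10 equal parts of the length had a mean of at least 464 calls per site for bone sample 1 and 71.6 for bone sample 2. The aligner kept only reads with a single best position, so that copies identical to one another over a read were not counted.

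The 10 sequences with the most calls held 13.4% of unplaced calls in bone sample 1 against 21.2% in bone sample 2, and the first 100 held 53.7% and 57.9%. Leftover_ScbfJmS_2247_2147_1698 had the most, with 2405566 calls in bone sample 1 against 1519343 in bone sample 2. Of its 2721 CpG sites, 62.6% had another site exactly 686 bp away, and its relative depth was 68.0 and 39.9. This depth was uneven, since 55.7% and 52.5% of its calls lay in 10% of its length. No call fell on 53.7% and 54.0% of its sites. The other 9, from 2021096 and 825699 calls in Leftover_ScbfJmS_792 downwards, were Leftover_ScbfJmS_1716 and Leftover_ScbfJmS_1045 of the 1400 bp group, Leftover_ScbfJmS_1330 and Leftover_ScbfJmS_2341 of the 23 bp group, Leftover_ScbfJmS_145 of the 46 bp group, Leftover_ScbfJmS_324_987_2391, Leftover_ScbfJmS_32 and Leftover_ScbfJmS_202. These 10 came from every kind of sequence except the longer 1400 bp group.

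The highest relative depth in both samples was that of Leftover_ScbfJmS_32, at 245 in bone sample 1 against 143 in bone sample 2. It had 335 CpG sites, 15.7% of which recurred at 23 bp, under the share that would have put it in the 23 bp group. Leftover_ScbfJmS_1239, of the 1400 bp group, was next in both samples at 163 and 86.3. Of the calls on Leftover_ScbfJmS_32 in bone sample 1, 78.8% lay in 10% of its length, and 37.9% of its sites had no call. Leftover_ScbfJmS_2255, Leftover_ScbfJmS_530 and Leftover_ScbfJmS_2441 followed in bone sample 1, at 138, 122 and 91.6. In bone sample 2 the next were Leftover_ScbfJmS_483 at 46.1, Leftover_ScbfJmS_1627 at 43.2 and Leftover_ScbfJmS_2247_2147_1698 at 39.9, and the first 2 of these were deeper than in bone sample 1 (33.9 and 13.3).

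The samples differed in depth by repeat group. The ratio of relative depths, bone sample 1 over bone sample 2, had a median of 4.94 over the described sequences and was above 1 in 1189 of the 1344. Its median was 11.5 in the 46 bp group, 7.16 in the 23 bp group, 5.43 in the longer 1400 bp group, 3.23 in the 1400 bp group and 1.39 without a dominant distance. The ratio also rose with CpG density on the autosomes, from 0.677 in 1 kb windows with 1 to 9 CpG sites to 3.86 in windows with 60 or more. At 30 to 39 CpG sites per window, it was 2.49 on the autosomes and 2.54 in unplaced sequences without a dominant distance. In the 23 bp group it was 6.65 at that density. The sequences without a dominant distance thus followed the autosomal ratio at 30 to 39 sites, whereas those with the 23 bp unit lay above it. At 60 or more sites the 23 bp group lay below the autosomes, at 2.63 against 3.86 over 206 windows. Methylation moved with the ratio on the autosomes. At 30 to 39 CpG sites, the median ratio among autosomal windows was 1.59 for windows under 20% methylated and 2.53 for those at 60% or more. Among the described sequences of that density, the median ratio was 2.91 over 3 sequences under 20%, 1.65 over 8 at 20% to 40%, 7.42 over 301 at 40% to 60% and 6.44 over 389 at 60% or more. The part of base composition, methylation, sample preparation and copy number in the ratio was not tested, and with 1 library per sample a difference in the DNA cannot be told apart from one in the libraries.

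**Figure D3:**
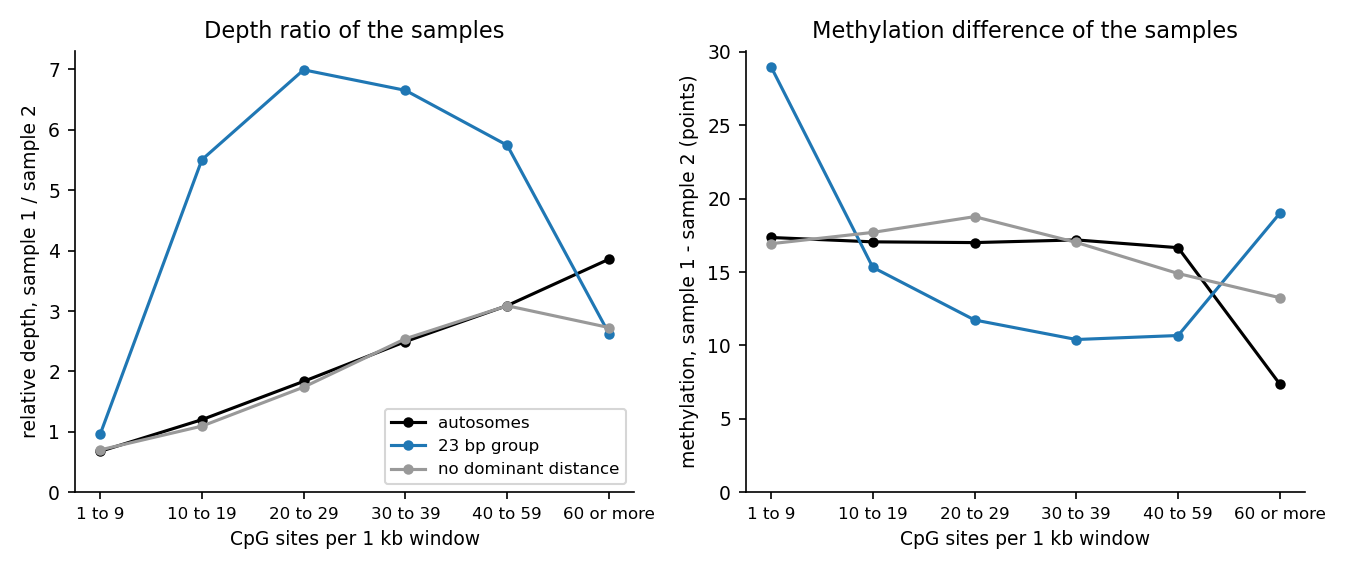
Ratio of relative depths of the samples (left) and the difference in methylation, bone sample 1 minus bone sample 2, in percentage points (right), for 1 kb windows grouped by their number of CpG sites (x axis). At 30 to 39 sites the depth ratio was 6.65 in the 23 bp group, 2.54 without a dominant distance and 2.49 on the autosomes, and the methylation difference was 10.4, 17.0 and 17.2 points.

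Unplaced sequences were methylated at an intermediate to high level. The weighted methylation level, methylated calls over all calls, stood at 69.50% for bone sample 1 and 54.26% for bone sample 2, with 95% Wilson intervals from 69.49 to 69.51 and from 54.24 to 54.28 and a mean of 61.9% ± 10.8 (SD, n = 2). These intervals cover counting error only. The autosomal levels were 72.4% and 59%, so that unplaced sequences lay 2.92 and 4.72 points below the autosomes. This direction depended on what they were compared with. Against autosomal 1 kb windows weighted to the same CpG density, unplaced sequences lay 9.47 and 9.38 points above. This sign came from the 2 densest classes alone, with 70.7% against 65.8% on the autosomes at 40 to 59 CpG sites per window in bone sample 1 and 74.2% against 28.2% at 60 or more. In the 4 classes under 40 sites unplaced windows were below the autosomal ones in both samples, with 60.4% against 76.5% at 1 to 9 sites and 66.8% against 74.9% at 30 to 39 in bone sample 1, and 43.3% against 59.2% and 55.7% against 57.7% in bone sample 2.

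Levels of single sequences were close together. The median over described sequences was 67.2% in bone sample 1 (quartiles 64 and 72.2) and 55.4% in bone sample 2 (quartiles 51.4 and 58.6), while the medians of autosomal bins were 78.0% and 59.6%. Methylation was over 80% in 4.09% of described sequences in bone sample 1 and in 0.0744% (1 sequence) in bone sample 2, compared with 39.8% and 1.05% of autosomal bins. It was under 20% in 0.372% and 0.521% of them, compared with 1.08% and 0.312% of the bins. Single sites with enough calls were intermediate too. Of 317129 unplaced sites that had at least 10 calls in both samples, 66.9% were between 20% and 80% methylated in bone sample 1 against 89.4% in bone sample 2, compared with 37.2% and 77.1% of autosomal sites. This minimum kept 317129 of 2354465 unplaced sites and 11049073 of 26052483 autosomal sites, so the shares cover deeper sites only. Whether the calls at 1 unplaced site came from several copies of a repeat was not tested.

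The repeat groups had their own levels in both samples. The weighted level was 78.8% in bone sample 1 against 62.0% in bone sample 2 in the 46 bp group, 75.3% and 57.0% in the 1400 bp group, 69.99% and 59.1% in the longer 1400 bp group and 66.7% and 55.9% in the 23 bp group. It was 66.2% and 49.1% without a dominant distance. By these levels the 46 bp group was highest and the sequences without a dominant distance lowest in both samples. By the median over sequences, the 23 bp group was lowest in bone sample 1, at 65.6% compared with 69.4% without a dominant distance, and the latter were lowest in bone sample 2, at 52.6% compared with 55.2%. With calls weighted, the order of the 1400 bp and longer 1400 bp groups was not the same in both. Sequences within a repeat group had a narrower spread than those without a dominant distance. The SD over sequences was 2.0 points in bone sample 1 against 2.34 in bone sample 2 in the 1400 bp group, 3.49 and 4.42 in the 23 bp group, and 12.4 and 10.6 without a dominant distance.

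The ACGT sites that made up most of the 23 bp group were its least methylated ones in both samples. Their level was 63.6% in bone sample 1 against 53.1% in bone sample 2, and the other letters ranged from 71.4% to 83.2% and from 55.7% to 70.7%. Pooled, the sites with other letters lay 11.6 and 9.05 points above the ACGT sites. CCGG sites were the highest in the 23 bp group in both samples, at 83.2% and 70.7%. ACGT was also lowest in the 46 bp group (57.9% and 36.8%), the 1400 bp group (56.7% and 41.0%) and the longer 1400 bp group (60.6% and 49.9%). The same held for sequences with another distance (60.9% and 48.4%) and for those without a dominant distance (60.5% and 42.6%). On the autosomes the ACGT level was 70.7% and 54.0%, which was the lowest of all letters in bone sample 2 but not in bone sample 1, where GCGC had 65.3%.

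At the highest numbers of CpG sites nearby, methylation was low on the autosomes and high in the 46 bp and 1400 bp groups. Sites were grouped by the number of CpG sites within 150 bp on either side, the site itself included. On the autosomes the level in bone sample 1 was 76.9% with 1 to 5 sites, 79.1% with 6 to 10 and 16% with 31 or more, and in bone sample 2 it was 59.4%, 62.8% and 12.1%. In the 46 bp group it was 61.4% and 40.7% with 6 to 10 sites and 80.6% and 65.4% with 31 or more. The 23 bp group showed 62.9% and 51.4% with 6 to 10 sites and 75.4% and 57.0% with 21 to 30. It did not rise at every step, with 64.3% at 1 to 5 sites in bone sample 1 and 59.3% at 16 to 20 in bone sample 2. In the 1400 bp group the levels were 71.0% and 51.7% with 6 to 10 sites, and 76.8% and 58.1% with 21 to 30. The longer 1400 bp group had no single direction, with 62.2% and 50.8% at 1 to 5 sites, 74.4% and 62.3% at 6 to 10, 67.6% and 58.0% at 11 to 15, which held most of its sites, and 73.1% and 58.6% at 21 to 30. Without a dominant distance the level was 69.2% and 52.5% with 6 to 10 sites, 74.5% and 59.1% with 21 to 30, and 50.5% and 41.4% with 31 or more. The densest sites of the 46 bp group were thus its most methylated ones, at a density where autosomal sites were mostly unmethylated.

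**Figure D4:**
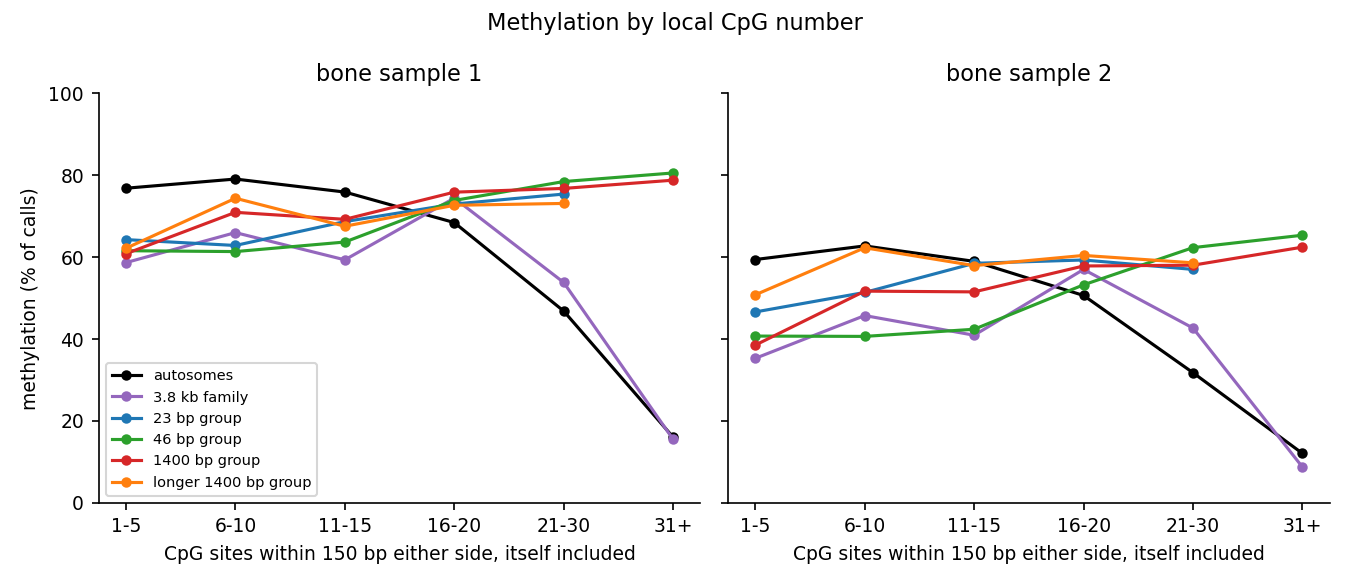
Methylation level (y axis, % of calls) of CpG sites grouped by the number of CpG sites within 150 bp on either side (x axis), in bone sample 1 (left) and 2 (right). With 31 or more sites the 46 bp group stands at 80.6% and 65.4%, whereas the autosomes stand at 16% and 12.1% and the 3.8 kb family at 15.5% and 8.75%.

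A family of sequences with a long unit went the other way. Leftover_ScbfJmS_1505_733 had 659 CpG sites, of which 55.6% had another site exactly 3823 bp away. A total of 27 described sequences shared at least 20% of their runs of 3 CpG sites with it, and the highest share outside the family was 19.6%. The family was set by sequence only, but it was picked for description after its methylation had been seen. The distance lay within 1% of 3823 bp in 9 members, whether or not it held enough sites to be dominant. Some other members, among them Leftover_ScbfJmS_45 and Leftover_ScbfJmS_1383, were too short for this distance to be tried.

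The CpG-dense part was weakly methylated in most members with enough calls, but not in the 2 with the most calls there. In Leftover_ScbfJmS_1505_733, the 300 sites with at least 16 CpG sites within 150 bp were 12.7% methylated in bone sample 1 against 6.7% in bone sample 2, over 124346 and 31057 calls, whereas its other 359 sites were 60.5% and 36.6% methylated. Over all its sites the level was 29.9% and 29.2%, since the dense sites held 124346 of 194486 calls in bone sample 1 and 31057 of 125456 in bone sample 2. In 20 members both kinds of site had at least 100 calls in each sample, and the dense sites were lower in both samples in 18 of them. The median level over these 20 was 17.6% and 8.63% at dense sites and 59.5% and 39% at other sites. The exceptions were Leftover_ScbfJmS_908_1359, with dense sites at 76.5% and 56.5%, and Leftover_ScbfJmS_324_987_2391, with 64.5% and 51.6%. Neither had a distance within 1% of 3823 bp, with 1400 bp (18.6% of sites) in the former and 4013 bp (26.7%) in the latter. They held 548329 and 925191 calls at dense sites in bone sample 1. Pooled over all calls of the family, the level was 74.4% and 57.0% at sites with 16 to 20 CpG sites nearby and 53.8% and 42.7% with 21 to 30, above the autosomal 68.5% and 50.7% and 46.9% and 31.8%, and it was at 15.5% and 8.75% with 31 or more. These 2 shared 36.6% and 44.1% of their runs with the first member, and the other sites of the former stood at 62.5% and 44.7% and those of the latter at 70.2% and 47.9%.

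Some members were weakly methylated over all their calls. Leftover_ScbfJmS_45 had a relative depth of 61.8 and 10.3 and a level of 13.1% and 7.78%. The plus strand gave only 1.07% (bone sample 1) and 0.973% (bone sample 2) of its calls. These levels thus rested almost wholly on the minus strand. Sites without a call made up 54.0% and 52.3% of the sequence's sites, including all those in parts 1 to 5 of 10 equal parts of its length. Its dense sites held 137391 of 139867 calls in bone sample 1 and 24433 of 25087 in bone sample 2. Its other sites stood at 43.4% and 34.1%. In Leftover_ScbfJmS_2154 the relative depth was 86.5 and 29.8 and the level was 19.2% and 13.9%. There the dense sites held 233783 of 276489 calls in bone sample 1 and 72391 of 102492 in bone sample 2. The other sites stood at 43.1% and 28.1%. Leftover_ScbfJmS_850 was deeper in bone sample 2, at 30.2 against 19.7, with levels of 20.9% and 14.5%. Most of its calls lay on its other sites, which stood at 27.8% in bone sample 1 and 17.3% in bone sample 2. Leftover_ScbfJmS_1383 had the lowest mean of all described sequences, at 13.3% and 7.33%. Of the 21 described sequences with a mean under 40% (1.56%, compared with 3.59% of autosomal bins), 11 belonged to the family, which held 27 of all 1344. The first member is among these 11, and the family was picked after its methylation had been seen. This count is therefore no independent support for low methylation of the family.

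The remaining sequence among the 5 lowest was no member of it. Leftover_ScbfJmS_698 stood at 13.0% in bone sample 1 against 10.7% in bone sample 2, shared 1.21% of its runs of 3 sites and had only 1425 and 1020 calls, with no call on 68.3% and 63.3% of its 496 sites. The 5 highest were shallow as well. Leftover_ScbfJmS_909_1035_2250_1886, with 5282 CpG sites at 69.4 per kb, was 95.9% methylated in bone sample 1 (95.3 to 96.4) and 97.7% in bone sample 2 (97.0 to 98.3), and it was the only described sequence over 80% in both samples. Its calls covered few of its sites, since 94.4% and 96.3% had none. Leftover_ScbfJmS_911, Leftover_ScbfJmS_870, Leftover_ScbfJmS_833 and Leftover_ScbfJmS_281 followed, with levels of 86.4% to 93.1% in bone sample 1 and 68.6% to 75.7% in bone sample 2, at relative depths of 0.0565 to 0.648 and 0.0365 to 0.607.

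Bone sample 2 was lower than bone sample 1 on nearly all unplaced sequences. The weighted difference was 15.2 points over all unplaced calls, compared with 13.4 points on the autosomes, but the order turned with the measure, since by medians it was smaller on unplaced sequences. The described sequences had a median difference of 12.1 points (quartiles 9.96 and 16.4), compared with 17.5 points over autosomal bins, and 1327 of the 1344 were lower in bone sample 2. Each sequence was tested with Fisher's exact test on its calls, two-sided, with Benjamini-Hochberg adjustment over described sequences and autosomal bins together. At an adjusted p under 0.05 and a difference of at least 10 points, 1001 of the 1344 (74.5%) were lower in bone sample 2 and 0 were higher. By the same rule, 90.2% of autosomal bins differed, 88.4% being lower and 1.85% higher. Such a test compares 2 libraries and not conditions, and reads are not independent samples. The share of unplaced sequences called was thus below that of the autosomal bins.

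The difference depended on the repeat group. Its median was 18.0 points in the 1400 bp group, 16.8 without a dominant distance, 15.4 in the 46 bp group, 10.9 in the longer 1400 bp group and 10.7 in the 23 bp group. At 30 to 39 CpG sites per 1 kb window, the difference was 10.4 points in the 23 bp group, 17.0 without a dominant distance and 17.2 on the autosomes. In the sparsest and the densest windows of the 23 bp group the order was the opposite, with 28.99 points against 17.4 on the autosomes at 1 to 9 sites (268 windows) and 19.01 against 7.36 at 60 or more (206 windows). Across the 1344 sequences, which share the same libraries, levels in the samples were correlated with a Pearson r of 0.787 and a Spearman rho of 0.682.

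The largest differences were those of Leftover_ScbfJmS_116 (76.8% in bone sample 1 against 44.6% in bone sample 2), Leftover_ScbfJmS_405 (76.1% and 45.2%), Leftover_ScbfJmS_1229 (75.3% and 45.2%), Leftover_ScbfJmS_456 (83.0% and 53.2%) and Leftover_ScbfJmS_852 (72.6% and 43.1%). These 5 had no dominant distance and between 394 and 4586 calls in a sample. Calls did not always lie at the same places in both samples. In Leftover_ScbfJmS_1229, part 6 of 10 equal parts held 85.3% of calls in bone sample 1 against 49.9% in bone sample 2. The levels within that part were 78.6% and 61.8%. No call fell on 70.1% and 81.7% of its sites over the whole sequence. In the opposite direction, Leftover_ScbfJmS_1595 stood at 59.4% in bone sample 1 against 65.9% in bone sample 2, over 67356 and 48080 calls, with an adjusted p of 3.88e-110 by Fisher's exact test. Leftover_ScbfJmS_671 (41.0% and 45.6%) and Leftover_ScbfJmS_1000 (31.4% and 35.1%) were also higher in bone sample 2, with adjusted p of 1.61e-04 and 8.84e-05 by the same exact test. All calls on Leftover_ScbfJmS_1000 lay in 10% of its length. The 10 equal parts of the length did not all share these signs. In Leftover_ScbfJmS_671 only part 3 was higher in bone sample 2, at 5.53% in bone sample 1 against 29.4% in bone sample 2. That part held 42.0% and 31.9% of its calls, and all other parts with calls in both samples were lower in bone sample 2. Leftover_ScbfJmS_1595 was higher in bone sample 2 in parts 2, 3, 4 and 7 and lower in parts 5, 6, 8, 9 and 10. Leftover_ScbfJmS_1054 and Leftover_ScbfJmS_1840, with adjusted p of 0.238 and 0.0575, did not pass.

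Some repeat groups were read unequally from their strands. Over all unplaced sequences, 49.9% of calls in bone sample 1 against 49.5% in bone sample 2 came from the plus strand. In the 1400 bp group only 6 of 63 sequences in bone sample 1 against 17 in bone sample 2 had between 40% and 60% of calls from it. The printed 1400 bp run does not read the same on both strands, so it gave 42 of these sequences a direction (at least 3 copies, at least 80% of them in 1 direction, 18 along the plus strand and 24 along the minus strand). The strand that reads as printed gave a median of 84.4% of calls in bone sample 1 (range 66.8 to 92.0) and 64.9% in bone sample 2 (range 40.4 to 75.9), and it gave the majority in 42 of 42 and 39 of 42 sequences. In the 46 bp group the strand that reads as printed gave a median of 25.1% and 31.7% over 32 sequences, and in the longer 1400 bp group 52.3% and 56.4% over 34.

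In bone sample 1, unequal strands were also frequent on the autosomes. Under 40% or over 60% of calls came from the plus strand in 57.1% of described sequences there, compared with 63.4% of autosomal bins. The shares were 33.4% and 8.34% in bone sample 2. Methylation differed little between strands at the sites of the 1400 bp run, with 76.7% on the strand that reads as printed and 78.9% on the other in bone sample 1, and 59.1% and 58.1% in bone sample 2.

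**Figure D5:**
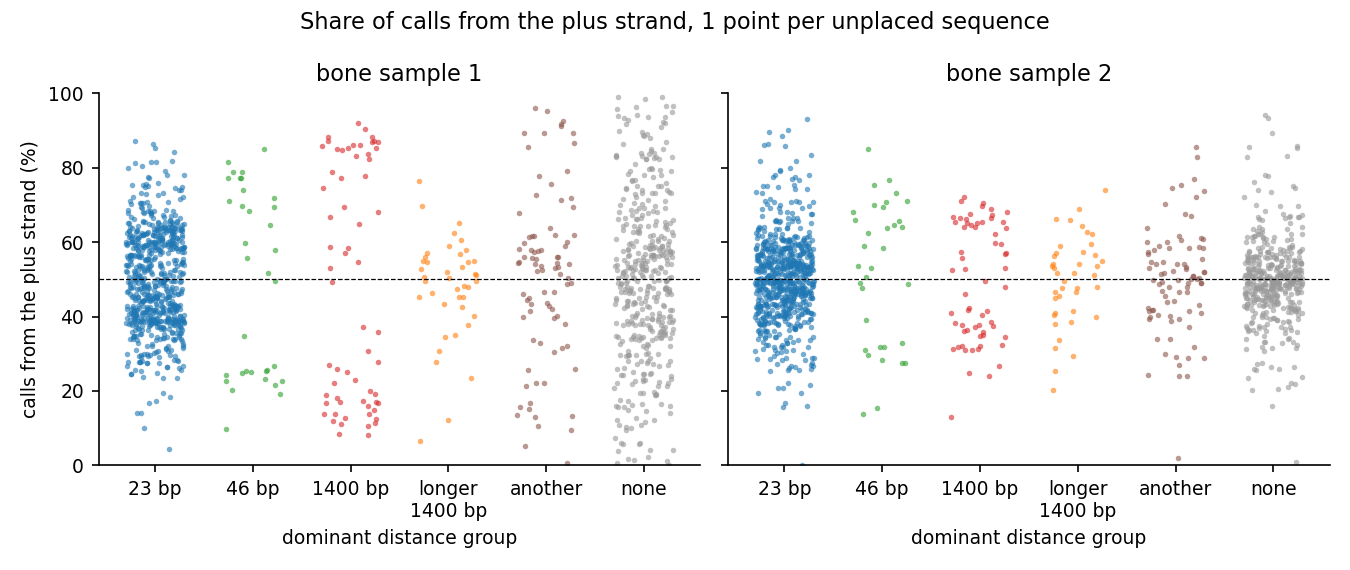
Share of calls from the plus strand (y axis, %) for each of the 1344 described sequences (points), by dominant distance group (x axis), in bone sample 1 (left) and 2 (right). The points of the 1400 bp group fall into an upper and a lower cloud in bone sample 1 with 6 of 63 between 40% and 60%, and the clouds are closer together in bone sample 2.

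Of the unplaced sequences, 2168 had names of the same form and 9 did not, and these 9 had 6.0 to 13.1 CpG sites per kb with no dominant distance. Super-Scaffold_1723_ScbfJmS_2085 had the most CpG sites of all, 66711 over 9309731 bp. Its relative depth was 0.299 in bone sample 1 against 0.328 in bone sample 2, 69.3% and 66.8% of its sites had no call, and its level was 62.5% and 47.7%. Runs of 5 CpG sites from it were found on chromosomes in 50.7% of cases but on other unplaced sequences in only 2.80%. In contig_X_unplaced, with 8732 sites, the relative depth was 1.85 and 2.0, the level was 67.8% and 50.5%, and 5.35% of runs were found on chromosomes. ScbfJmS_848_142 and ScbfJmS_2447 had 64.1% and 73.1% of sites without a call in bone sample 1 and 44.0% and 39% of runs on chromosomes. ScbfJmS_511, ScbfJmS_708 and ScbfJmS_892_Leftover_ScbfJmS_927 had relative depths of 1.12 to 1.81 in bone sample 1 and 1.2 to 1.49 in bone sample 2. ScbfJmS_2445 and contig_15_unplaced were the smallest, with 146 and 164 CpG sites and levels of 77.7% and 68.4% in bone sample 1 and 53.7% and 50.2% in bone sample 2.

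After Super-Scaffold_1723_ScbfJmS_2085, the sequences with the most CpG sites were Leftover_ScbfJmS_1324 and Leftover_ScbfJmS_1771 of the 23 bp group, with 30542 and 14964 sites over 909264 and 429066 bp. Leftover_ScbfJmS_1324 had a relative depth of 2.40 in bone sample 1 against 0.545 in bone sample 2, and levels of 64.8% and 55.6%. Leftover_ScbfJmS_1771 had 7.04 and 0.655, and 64% and 56.4%. Leftover_ScbfJmS_1899 and Leftover_ScbfJmS_1751, with 10587 and 10490 sites, had no dominant distance.

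The most regular sequences by the measure within 2 bp were Leftover_ScbfJmS_1665, Leftover_ScbfJmS_1014 and Leftover_ScbfJmS_527 of the 1400 bp group, Leftover_ScbfJmS_356 of the 46 bp group and Leftover_ScbfJmS_419 of the 3.8 kb family. In Leftover_ScbfJmS_1665, 96.8% of CpG sites had another site exactly 1406 bp away, and its level was 76.1% and 61.9%. In Leftover_ScbfJmS_356 the share was 89.1% at 46 bp over 1976 sites and 108 CpG sites per kb, with levels of 80.4% and 65%. Only 0.203% of its runs were found on chromosomes, whereas 97.5% were found in other unplaced sequences.

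Of the sequences not described, 30 had fewer than 50 CpG sites and 803 had fewer than 200 calls in at least 1 sample. The latter had a median of 45 calls in bone sample 1 against 13 in bone sample 2, and 278 of them had no call in either. Their CpG density (median 32.2 per kb) was close to that of the described sequences, and 45.6% of them had the 23 bp distance. The sequences just inside and just outside the limit had 200 and 199 calls in their shallower sample. All sequences not described held 0.364% and 0.142% of unplaced calls.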

How the data were processed

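Whole-genome bisulfite sequencing of 2 bone samples (150 bp paired-end reads) was analysed from the deposited tables. For every CpG cytosine, these hold whole-number counts of methylated and unmethylated calls that the authors made with FastQC 0.11.5, Trim Galore 0.4.5, Bowtie2 and Bismark 0.19.0 after removal of duplicate reads, per the submitters' processing notes. These notes name ARS-UCD1.2 as the genome build, the study's methods name another, and the tables name none, so coordinates are given only as spans within a sequence. Bismark keeps reads with a single best position, so that copies identical to one another over a read were not counted. How far this changed the depth of repeats was not tested. Paired reads carry no molecular identifiers.

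Both strands of a CpG site were merged. Levels are weighted (methylated over all calls), with 95% Wilson intervals for counting error. Relative depth is calls per site over the autosomal median. Autosomes held 445684877 and 389385549 calls and unplaced sequences 118609426 and 31915102. Runs of CpG sites were compared exactly, on either strand, by distances and adjoining bases; in 61236 of 61241 pairs of sites 2 bp apart these bases were the ones the neighbour requires. Sequences were compared between samples by Fisher's exact test with Benjamini-Hochberg adjustment over sequences and autosomal 10 kb bins. Sequences were named by rule (most calls, depth, CpG sites, regularity, extremes of methylation and difference, names of another form); the 3.8 kb family and its members were named after values were seen. Members, groups and lists were chosen with earlier results of these data known. Alternatives changed minimum numbers of sites and calls, thresholds and the autosomal comparison, and left out each sample. The distance measure and the test were checked on simulated data. Scripts ran under Python 3.11.15 with pandas 2.3.3, numpy 2.4.6, matplotlib 3.10.9 and scipy 1.17.1. No genome of the files' build was used, so genes and annotated repeats on these sequences were not analysed here.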

Additional observations from a re-analysis of the deposited data

How the results depend on the processing

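No paired analysis was possible because only 1 group exists, so nothing could be paired. Levels over many calls are limited by the difference between the 2 samples, those of sequences with few calls also by counting error, and sites without a call limit what is known of each sequence. Of 77 alternative settings over 17 results, 59 moved the value by less than the spread of the samples or of counting or, for counts of sequences, by less than 1.5 times. Among these, 1302 sequences differed by adjusted p alone (1001 as reported), and the median relative depth was 1.59 (0.945 as reported) with at least 1000 calls. The 59 also include settings that could not have counted as a move. Where a result is the mean of both samples, each sample always lies closer to that mean than their SD. Leaving out a sample therefore says nothing about the stability of such a result. The difference from the autosomes changed sign with density-weighted autosomal windows (9.43 points in the mean of the samples, against -3.82), through the classes of 40 or more CpG sites alone, was -7.52 points for the median of described sequences against that of autosomal bins, and was -5.38 points with cytosines of at least 5 calls. The median relative depth fell to 0.0769 with median instead of mean calls per site. The share at 3 times the autosomal depth was 17.3% at 2 times, 7.74% at 5 times and 17.9% against windows of the same density, and from 13.0% to 35.0% when bone sample 1 or bone sample 2 was left out. The 20 instead of 10 sequences with the most calls held 25.8% of calls, and the 10 held 11.7% once the most-called 0.1% of cytosines were left out. The sample difference was 14.97 points without those cytosines, 15.05 without the 10 sequences and 12.1 as a median. With at least 20 points, 141 sequences differed. Sequences under 20% made up 0.563% with cytosines of at least 5 calls. A tandem period was found in 9.52% with exact distances and in 6.47% at a share of 70%. The plus strand gave 50.1% without the most-called cytosines. The 7 added settings, chosen after the data were seen (a 30% share for the 23 bp group or for the family, 20 CpG sites within 150 bp, 1000 calls or sites with 10 calls, and leaving out the most-called cytosines), changed no result by more than these limits.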
